A study of Mus musculus with 2 samples.

Results

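The 10 genes described here are 7 matrix metalloproteinases (*Mmp2*, *Mmp3*, *Mmp9*, *Mmp10*, *Mmp12*, *Mmp13* and *Mmp14*) and 3 tissue inhibitors of metalloproteinases (*Timp1*, *Timp2* and *Timp3*). They were taken by gene symbol from the 32285 genes counted in both libraries, each symbol having 1 row. Single-cell RNA sequencing had been performed on live cells sorted from subcutaneous tumors of MC38, a colon cancer line of the mouse, 1 library from *Lmo7+/+* (WT) hosts and 1 from *Lmo7-/-* (KO) hosts. The hosts were female mice, implanted at 6 to 8 weeks, the knockout being one of the whole body on a C57BL/6 background. The implanted MC38 cells were not deleted for *Lmo7*, so tumor cells of both libraries carry the gene. How many mice stand behind each library is not given in the sources used here. The comparison between the hosts asks how the tumor microenvironment differs without LMO7, a LIM domain protein.

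Matrix metalloproteinases are zinc-dependent proteases that are made as inactive precursors and cut collagen, other matrix proteins and many surface proteins. They are held in check by the TIMP proteins, which bind the active site. In tumors, fibroblasts, macrophages, vessels and cancer cells can all release them, and they are known for opening the matrix to invasion and vessel growth. MMP-14 sits in the membrane and, together with TIMP-2 as a bridge, activates the precursor of MMP-2. Several family members sit side by side in 1 gene cluster and have promoters with an AP-1 site, which binds FOS and JUN proteins induced by growth factors and inflammatory cytokines.

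About 10000 sorted cells were loaded per library according to the labels, and the files held 16208 and 15163 barcodes. After cells with few genes or much mitochondrial RNA were removed, 13542 cells of the library labelled *Lmo7+/+* and 11860 of the library labelled *Lmo7-/-* remained, with a median of 4535.5 and 4304.5 UMIs per cell, where a UMI marks 1 captured RNA molecule. Clustering was run without the family's genes, so that their levels did not decide the classes. Of the cells kept, 5513 and 3776 were tumor-like, 126 and 96 fibroblast-like, 97 and 73 endothelial-like, and 3347 and 4033 macrophage-like. Fibroblast-, endothelial- and macrophage-like cells carried all 12 of their markers at 5 CPM (the UMIs of a gene scaled to the same total in every class) or more in both libraries. Of the 18 epithelial markers, 5 reached that level in tumor-like cells, which were named from their chromosome profile instead. Markers of other classes were present in all 4: fibroblast markers summed to 2150 and 1558 CPM in tumor-like cells and to 1067 and 1544 CPM in endothelial-like cells, where pericyte markers came to 764 and 1200 CPM, and macrophage markers summed to 1022 and 1390 CPM in fibroblast-like cells. Their part in the results was not tested except where cells were left out below. *Lmo7* itself did not check the labels, with 36.6 and 29.1 CPM in endothelial-like cells (18 and 12 counts) and under 4 CPM in fibroblast- and macrophage-like cells, so genotypes are given as labelled. The libraries shared 279 barcodes, or 1.72% and 1.84% of their cells. With 1 library per genotype no test between genotypes was possible. All intervals are 95% intervals for counting error only, exact Poisson for CPM and exact binomial for shares and ratios.

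*Mmp13*, *Mmp12*, *Mmp3* and *Mmp10* lie in this order within 237.7 kb of chromosome 9 (7272514 to 7510240, GRCm38, GENCODE M21), all on the plus strand. The other members stand alone: *Mmp2* on chromosome 8 (92827291 to 92853420), *Mmp9* on chromosome 2 (164940780 to 164955850), *Mmp14* on chromosome 14 (54431612 to 54445364), *Timp1* on chromosome X (20870166 to 20874735), *Timp2* on chromosome 11 (118301069 to 118355740) and *Timp3* on chromosome 10 (86300372 to 86349506). Promoter sequence was given for 8 of the 10 members in a RefSeq table of GRCm38.p6, not for *Mmp2* and *Mmp9*. The 250 bases before the start were searched on both strands for the AP-1 site TGAGTCA and for TATAAA, which do not overlap. *Mmp3*, *Mmp10* and *Mmp13* held both, and *Mmp12*, *Mmp14*, *Timp1*, *Timp2* and *Timp3* held neither. The RefSeq start used for *Timp2* lies 329 bases inside the GENCODE gene, so the bases searched for it lie within that gene. TGAGTCA was found in 4.46% of all 32851 promoters given, TATAAA in 12.4% and both in 0.721%. The first base of the AP-1 match lay 46, 63 and 35 bases before the start of *Mmp3*, *Mmp10* and *Mmp13*. The last 120 bases before the start of the 4 neighbours on chromosome 9 are shown, 5′ to 3′ on the plus strand, because these genes lie next to each other and yet were highest in different cells. Capitals mark the matches, TGACTCA being the AP-1 site read on the other strand.

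*Mmp13*, chr9:7272394-7272513: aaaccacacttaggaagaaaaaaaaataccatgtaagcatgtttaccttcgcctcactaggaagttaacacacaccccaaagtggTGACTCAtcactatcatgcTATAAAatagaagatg

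*Mmp12*, chr9:7344261-7344380: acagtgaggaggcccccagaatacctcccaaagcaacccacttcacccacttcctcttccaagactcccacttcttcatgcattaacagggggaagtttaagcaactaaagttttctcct

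*Mmp3*, chr9:7445702-7445821: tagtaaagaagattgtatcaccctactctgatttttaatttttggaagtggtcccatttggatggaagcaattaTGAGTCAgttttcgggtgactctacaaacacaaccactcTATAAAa

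*Mmp10*, chr9:7502222-7502341: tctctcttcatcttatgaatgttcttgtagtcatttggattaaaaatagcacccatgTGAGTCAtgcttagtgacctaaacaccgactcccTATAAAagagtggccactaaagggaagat

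Among the tumor-, fibroblast-, endothelial- and macrophage-like cells, the class with the highest level was the same in both libraries for all 10 members. Monocyte-like cells, outside these 4 classes, had more *Mmp12* than macrophage-like cells in the *Lmo7-/-* library (230.1 CPM, 209 to 252) and less in the *Lmo7+/+* library (173 CPM, 158 to 189). It was the fibroblast-like class for *Mmp2*, *Mmp3*, *Mmp14*, *Timp1* and *Timp2*, the tumor-like class for *Mmp9* and *Mmp10*, the macrophage-like class for *Mmp12* and *Mmp13*, and the endothelial-like class for *Timp3*, where fibroblast-like cells came so close that the intervals overlapped. The neighbours on chromosome 9 were thus highest in 3 different classes, and *Mmp3*, *Mmp10* and *Mmp13*, the 3 with the AP-1 and TATA matches shown above, in 1 each. The highest class stayed the same under all 17 alternatives tried for the other 9 members, and *Timp3* was higher in fibroblast-like cells under 2 of them. T or NK-like cells, which were taken to lack most of these RNAs, served as the background for free RNA. After each cell was thinned to 1500 UMIs, the share of cells with a UMI was above that of T or NK-like cells in both libraries for 31 of the 40 pairs of member and class.

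**Figure D1:**
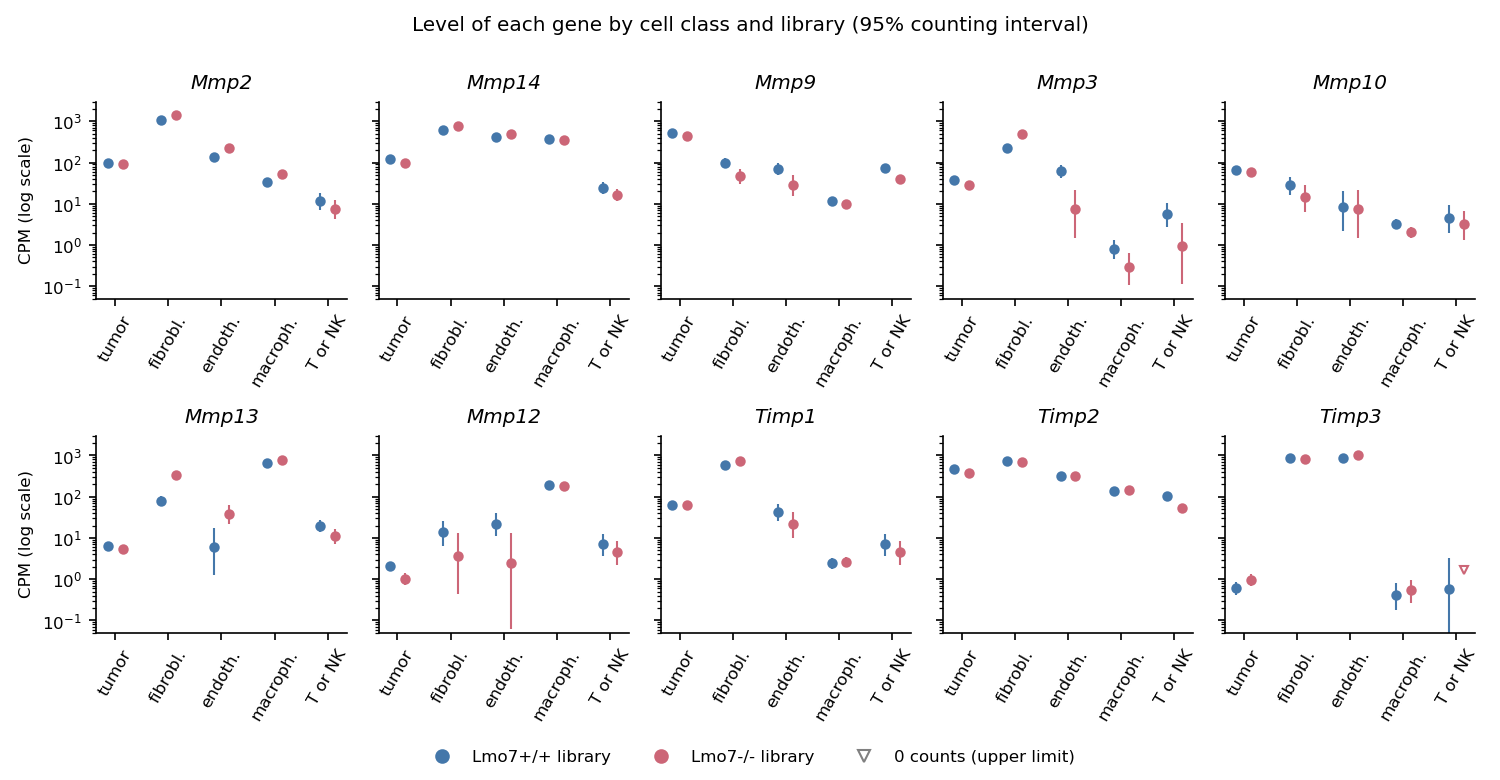
CPM of the 10 genes (log axis) in the tumor-, fibroblast-, endothelial-, macrophage- and T or NK-like cells of the Lmo7+/+ (blue) and Lmo7-/- (red) libraries, with 95% Poisson intervals for counting error; an open triangle is the upper limit where no count was seen. The points of both libraries lie close together for most genes, and *Mmp3* and *Mmp13* stand apart in fibroblast-like cells. Wider gaps in endothelial-like cells, for *Mmp3*, *Mmp12* and *Mmp13*, rest on few counts.

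*Mmp2* encodes a gelatinase that cuts denatured collagen and the type IV collagen of basement membranes. Its level in fibroblast-like cells was 1056 CPM (interval 978 to 1138) in the *Lmo7+/+* library and 1415 CPM (1317 to 1518) in the *Lmo7-/-* library, 6.90-fold above the next class when both libraries were summed. Endothelial-like cells had 134 and 228 CPM, tumor-like cells 99.0 and 92.6 CPM, and macrophage-like cells 34.6 and 52.2 CPM. The order of the 4 classes was the same in both libraries, with each class apart from the next beyond counting error.

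*Mmp14*, the membrane-bound activator of MMP-2, was found in all 4 classes. Fibroblast-like cells had 631 CPM (571 to 696) and 770.0 CPM (698 to 847), endothelial-like cells 419 and 505 CPM, macrophage-like cells 369 and 343 CPM, and tumor-like cells 119 and 95.8 CPM. The endothelial-like and macrophage-like levels were not apart over both libraries. *Timp2*, the inhibitor that also bridges MMP-14 and MMP-2, had 719.6 and 710.2 CPM in fibroblast-like cells, 460.3 and 369 CPM in tumor-like cells, 321 and 323 CPM in endothelial-like cells and 141 and 146 CPM in macrophage-like cells. All 3 genes of the activation complex were thus at their highest in the same class. UMIs of all 3 were found together in 23.7% (15.7 to 33.4) and 22.2% (13.7 to 32.8) of thinned fibroblast-like cells, against 2.33% and 9.52% of endothelial-like, 1.74% and 1.53% of tumor-like and 0.565% and 1.27% of macrophage-like cells. The products of the single shares in fibroblast-like cells, 17.4% and 23.98%, lay inside the intervals of the joint shares.

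*Mmp9* encodes the other gelatinase. It belonged to tumor-like cells, at 508 CPM (503 to 514) and 431 CPM (424 to 437), with a UMI in 45.4% and 42.3% of thinned cells. In the other classes it lay near or below the level of T or NK-like cells, and a share of free RNA cannot be told apart there. T or NK-like cells had 74.3 and 39.5 CPM, fibroblast-like cells 99.2 and 47.1 CPM, endothelial-like cells 71.1 and 29.1 CPM, and macrophage-like cells 11.9 and 9.93 CPM. The share of macrophage-like cells with a UMI, 2.20% and 1.79%, was below the 5.90% and 4.66% of T or NK-like cells at a thinned depth that was the same.

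*Mmp3* and *Mmp10* encode stromelysins, proteases of broad specificity that also activate other metalloproteinases. *Mmp3* had 223 CPM (188 to 263) and 493 CPM (436 to 555) in fibroblast-like cells, 37.1 and 28.9 CPM in tumor-like cells, 63.0 and 7.28 CPM in endothelial-like cells (31 and 3 counts) and 0.816 and 0.296 CPM in macrophage-like cells. Endothelial-like and tumor-like cells changed places between the libraries. *Mmp10* had 65.5 CPM (63.4 to 67.7) and 57.4 CPM (55.0 to 59.9) in tumor-like cells and 27.9 and 14.5 CPM in fibroblast-like cells (18 and 8 counts), and no more than 8.13 CPM in the other classes. Within tumor-like cells both stromelysins were concentrated in fewer cells than *Mmp9*. The top 10% of cells held 83.1% and 87.0% of the *Mmp3* UMIs and 75.7% and 78.0% of the *Mmp10* UMIs, against 46.0% and 46.1% for *Mmp9*. Among thinned tumor-like cells with an *Mmp3* UMI, 18.6% and 19.7% also had one of *Mmp10*, against 8.15% and 6.34% of those without.

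*Mmp13* encodes an interstitial collagenase and *Mmp12* the macrophage elastase. *Mmp13* had 654 CPM (643 to 666) and 766 CPM (754 to 778) in macrophage-like cells, 79.1 and 339 CPM in fibroblast-like cells, 6.10 and 38.9 CPM in endothelial-like cells (3 and 16 counts) and 6.55 and 5.33 CPM in tumor-like cells, the last below the 19.7 and 11.2 CPM of T or NK-like cells. *Mmp12* had 194 CPM (188 to 199.9) and 179.7 CPM (174 to 186) in macrophage-like cells, and at most 22.4 CPM in tumor-, fibroblast- and endothelial-like cells. Other myeloid cells came close to it, dendritic-like cells with 131 and 109 CPM and monocyte-like cells with the values given above. *Mmp13* was found in 40.9% and 41.8% of thinned macrophage-like cells, *Mmp12* in 12.3% and 10.6%. Of the cells with an *Mmp12* UMI, 66.5% and 76.0% also had one of *Mmp13*, against 36.3% and 39.2% of the cells without.

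The inhibitors were unevenly spread as well. *Timp3*, which stays bound to the matrix, had 856 and 842 CPM in fibroblast-like cells, 882 and 1039 CPM in endothelial-like cells (part of it in cells led by other classes' genes, as given below), and under 1 CPM in tumor-like and macrophage-like cells (33, 36, 8 and 11 counts). A *Timp3* UMI was seen in 53.6% and 40.7% of thinned fibroblast-like cells and 48.8% and 58.7% of endothelial-like ones, against 0 of 424 and 0 of 536 T or NK-like cells, which allows shares of up to 0.708% and 0.560% (3 cells of the total, a floor and not the binomial limit). *Timp1*, a secreted inhibitor induced by growth factors and cytokines, had 592 and 748 CPM in fibroblast-like cells, 61.9 and 61.6 CPM in tumor-like cells, 42.7 and 21.9 CPM in endothelial-like cells (21 and 9 counts) and 2.45 and 2.67 CPM in macrophage-like cells, below the 6.97 and 4.65 CPM of T or NK-like cells. Macrophage-like cells, which held most *Mmp12* and *Mmp13* RNA, thus carried *Timp2* as their 1 inhibitor above background.

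Levels in CPM and totals per tumor suspension gave different orders for several members, because the classes differ in number of cells and in UMIs per cell. For *Mmp9*, *Mmp10*, *Mmp12* and *Mmp13* the class with the highest CPM also held the most UMIs. Tumor-like cells had a median of 7387 and 7196 UMIs, fibroblast-like cells 2945 and 4149.5. Tumor-like cells held 63.9% and 48.7% of all *Mmp2* UMIs and 74.1% and 64.2% of all *Timp2* UMIs although fibroblast-like cells had the higher CPM. Macrophage-like cells held 84.1% and 85.8% of the *Mmp13* UMIs, 75.1% and 78.9% of the *Mmp12* UMIs and 39.8% and 48.5% of the *Mmp14* UMIs. *Timp3* UMIs lay mostly in small classes. The fibroblast- and endothelial-like cells, each under 1% of the cells, held 53.0% and 41.7% of them in the *Lmo7+/+* library. In the *Lmo7-/-* library these classes held 48.6% and 44.8%. For *Mmp3*, the share held by fibroblast-like cells was 4.82% in the *Lmo7+/+* and 17.0% in the *Lmo7-/-* library. The share of *Mmp9* UMIs in the cluster led by *Enpp2*, described below, was 11.4% and 23.98%. Dissociation can change the shares of cells recovered, and its part in these totals was not tested.

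**Figure D2:**
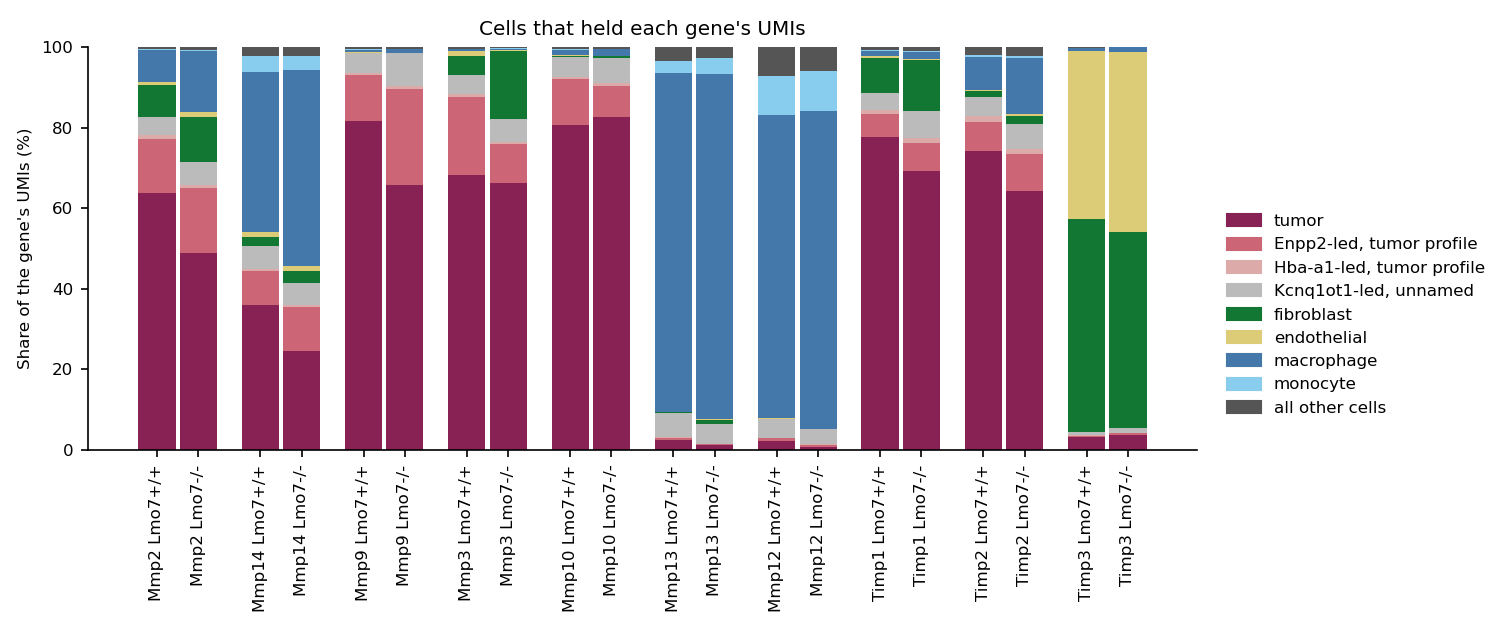
Share of each gene's UMIs (%) held by each class or unnamed cluster, 1 bar per gene and library. *Mmp12* and *Mmp13* are mostly in macrophage-like cells (blue), *Timp3* in fibroblast- and endothelial-like cells (green and yellow), and *Mmp9* and *Mmp10* in cells with the tumor chromosome profile (purple and red).

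Between the libraries, genes with at least 20 counts in a class were set side by side as a log2 ratio (CPM of *Lmo7-/-* over CPM of *Lmo7+/+*) and called past 2-fold at a log2 ratio of at least 1 or at most -1. In fibroblast-like cells 2 of 9 compared members were past 2-fold higher (background 3.34% of 6764 genes) and 1 past 2-fold lower (4.7%, or 8.04% in either direction). In endothelial-like cells 0 of 7 were higher (3.02% of 6251 genes) and 2 lower (3.87%, 6.89% in either direction). In tumor-like cells 0 of 10 were higher (1.1% of 13937 genes) and 1 lower (1.74%, 2.83% in either direction), and in macrophage-like cells 0 of 9 were higher (1.3% of 12116 genes) and 1 lower (1.39%, 2.7% in either direction). The median log2 ratio of the members was 0.29, 0.01, -0.27 and -0.10 in fibroblast-, endothelial-, tumor- and macrophage-like cells, and that of all compared genes -0.07, -0.01, -0.05 and -0.10.

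**Figure D3:**
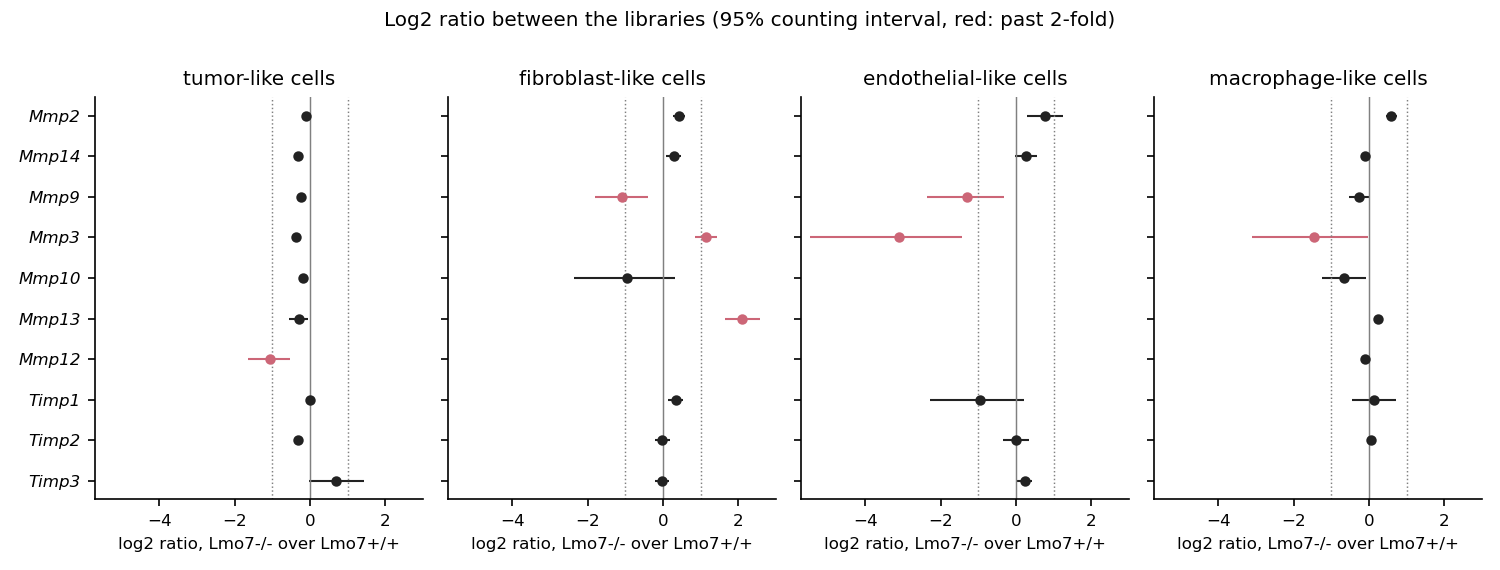
Log2 ratio of CPM, Lmo7-/- over Lmo7+/+, with 95% binomial intervals for counting error, for members with at least 20 counts in the class; dotted lines mark 2-fold and red points lie past it. In fibroblast-like cells *Mmp3* and *Mmp13* lie to the right of the upper line, and the remaining red points lie on the left.

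The higher values were *Mmp13*, with a log2 ratio of 2.099 (1.65 to 2.58) in fibroblast-like cells, and *Mmp3*, with 1.14 (0.85 to 1.44). Of the lower ones, *Mmp12* in tumor-like cells (116 and 37 counts, log2 ratio -1.07) and *Mmp3* in macrophage-like cells (16 and 6 counts, -1.46) were at or below the level of T or NK-like cells in both libraries. *Mmp9* in endothelial-like cells (-1.29, -2.37 to -0.31) and in fibroblast-like cells (-1.08, -1.79 to -0.40) overlapped that level in its intervals in both libraries, and with a lenient cell filter the ratio in fibroblast-like cells was 0.074. T or NK-like cells themselves had less *Mmp9* in the library labelled *Lmo7-/-*. *Mmp3* in endothelial-like cells (31 and 3 counts, -3.11, -5.47 to -1.43) came from 5 cells of the *Lmo7+/+* library, 1 of which held 20 of the counts. Within 2-fold but with intervals that left out 0 was *Mmp2*, higher in the library labelled *Lmo7-/-* in all 3 host classes, with log2 ratios of 0.42 in fibroblast-like, 0.77 in endothelial-like and 0.59 in macrophage-like cells. In tumor-like cells 7 members were within 2-fold and lower with intervals that left out 0, *Mmp3* (-0.36), *Timp2* (-0.32), *Mmp14* (-0.31), *Mmp13* (-0.30), *Mmp9* (-0.24), *Mmp10* (-0.19) and *Mmp2* (-0.10). The *Mmp2* value kept its sign under 12 of 18 alternatives, with a range from -0.10 to 0.16. Among tumor-like subclusters *Mmp2* was -0.07 (-0.23 to 0.09) in cells led by *Ero1l* and *Tnfrsf9* and above 0 in every other one compared. Its interval left out 0 in cells led by *Igkc* and *Ighg2c* (0.22, 0.09 to 0.36) and by *Cdc20* and *Plk1* (0.31, 0.11 to 0.50). *Mmp9* was not lower in every tumor-like subcluster, with 0.27 (0.18 to 0.35) in cells led by *Ero1l* and *Tnfrsf9* and 0.21 (0.09 to 0.33) in cells led by *Ctss* and *C1qc*. *Mmp10* had 0.30 (0.17 to 0.42) in cells led by *Ifit3* and *Rsad2*. It had -1.88 (-3.14 to -0.66) in cells led by *Tex13b*, which made up 4.10% and 14.0% of the class. *Mmp14* (0.29) and *Timp1* (0.34) in fibroblast-like cells, *Timp3* (0.24) in endothelial-like cells and *Mmp13* (0.23) in macrophage-like cells were higher, and *Mmp10* (-0.65), *Mmp12* (-0.11) and *Mmp14* (-0.10) in macrophage-like cells lower, each within 2-fold with an interval that left out 0. Among macrophage-like subclusters *Mmp13* went both ways, as given below. For *Mmp14* in tumor-like cells the sign turned (0.09) when cells with any UMI of another class's markers were left out. In the same class *Mmp10* kept its sign under 15 of 18 alternatives (up to 0.22), *Mmp13* under 15 of 17 (up to 0.32) and *Mmp3* under 17 of 18 (up to 0.185). *Mmp9* and *Timp2* kept theirs under 18 of 18.

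Fibroblast-like cells were divided further, again without the family's genes, and 2 of their 5 subclusters were led by genes of other cells, *Ccl4* and *C1qc* of macrophages and *Rgs5* and *Abcc9* of pericytes. One led by *Clec3b*, *Tnxb* and *Saa3*, genes of adventitial fibroblasts and of the acute phase, held 27 and 39 cells and held most *Mmp3*, at 754 CPM (105 counts) and 1100 CPM (226 counts). Its *Mmp13* counts were 0 and 52. One led by *Mest*, *Reg3g* and *Spp1*, with 35 and 16 cells, had the most *Mmp13*, at 203 and 1052 CPM (45 and 115 counts, log2 ratio 2.38, 1.87 to 2.91), and the same *Mmp3* within counting error, at 158 and 146 CPM. One led by *Col8a2*, *Comp* and *Fmod*, genes of fibrous matrix, had 1746 and 2280 CPM of *Mmp2*, against 1774 and 1810.3 CPM in the cells led by *Clec3b*, and the most *Timp3*, at 1663 and 1902 CPM, with at most 2 *Mmp13* counts in either library. The cells led by *Clec3b* made up 21.4% of fibroblast-like cells in the *Lmo7+/+* and 40.6% in the *Lmo7-/-* library, those led by *Mest* 27.8% and 16.7%. *Mmp13* was thus higher in the library labelled *Lmo7-/-* within each of these subclusters that carried it. *Mmp3* differed within the cells led by *Clec3b* by a log2 ratio of 0.54 (0.20 to 0.89), less than in the whole class, and these cells were also the larger share of the class in the *Lmo7-/-* library.

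The counts behind these ratios came from few cells. *Mmp13* UMIs were found in 15 fibroblast-like cells of each library. In the *Lmo7-/-* library 1 cell held 45 of the 187 counts and 5 cells held 82.4%. Without the top cell of each library the log2 ratio was 1.98. For *Mmp3*, 21 and 35 cells had a UMI, the top cell of the *Lmo7+/+* library held 38 of 144 counts, and the log2 ratio without the top cells was 1.43. Among thinned cells, *Mmp3* was in 13.4% (7.33 to 21.8) and 27.2% (17.9 to 38.2), and *Mmp13* in 8.25% (3.63 to 15.6) and 12.3% (6.08 to 21.5), so that the shares of positive cells overlapped in their intervals for both genes. Of the macrophage markers 11 of 12 were at 5 CPM or more in fibroblast-like cells of both libraries. Without the subclusters led by genes of other classes the ratios were 2.098 for *Mmp13* and 1.05 for *Mmp3*. When only cells with no UMI of another class's marker were kept, *Mmp13* stayed past 2-fold at 2.22 and *Mmp3* did not, at 0.76. With the mean of each cell's CPM in place of summed counts, *Mmp13* had a ratio of 1.37.

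**Figure D4:**
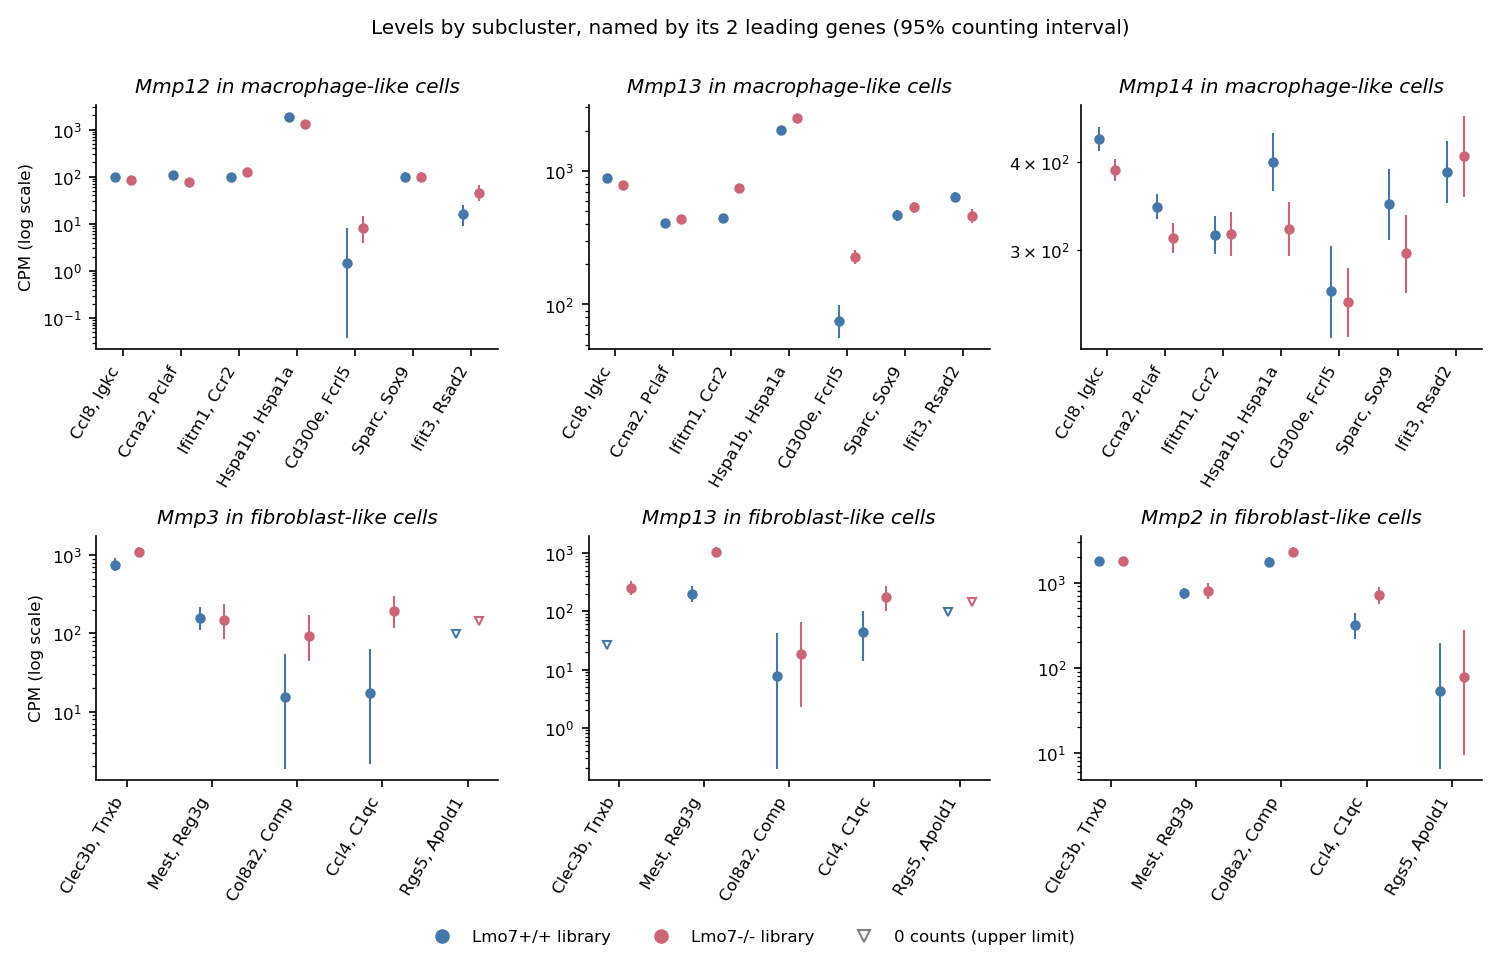
CPM (log axis) by subcluster, named by its leading genes, for *Mmp12*, *Mmp13* and *Mmp14* in macrophage-like cells and *Mmp3*, *Mmp13* and *Mmp2* in fibroblast-like cells, in the Lmo7+/+ (blue) and Lmo7-/- (red) libraries, with 95% Poisson intervals; open triangles are upper limits where no count was seen. *Mmp12* and *Mmp13* peak in the subcluster led by *Hspa1b* and *Hspa1a*, while *Mmp14* spans a narrow range.

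In macrophage-like cells *Mmp12* and *Mmp13* varied more between subclusters than between libraries. A subcluster led by *Hspa1b*, *Hspa1a*, *Gpnmb*, *Hmox1* and *Arg1*, heat shock genes together with genes of lipid-laden and arginine-consuming macrophages, had 246 and 368 cells. It had 1830.4 and 1336 CPM of *Mmp12* and 2030.1 and 2485 CPM of *Mmp13*. In the next highest subclusters *Mmp12* did not exceed 125 CPM. At the other end, cells led by *Cd300e*, *Fcrl5* and *Klra17*, with *Cd300e* known from nonclassical monocytes, had 1 and 10 counts of *Mmp12* and 75.1 and 226 CPM of *Mmp13* (51 and 277 counts, log2 ratio 1.59, 1.15 to 2.05), the largest difference between the libraries for *Mmp13* among the macrophage subclusters. *Mmp13* was lower in the *Lmo7-/-* library in the largest subcluster, led by *Ccl8* (-0.18, -0.23 to -0.13). It was also lower in cells led by *Ifit3* and *Rsad2* (-0.48, -0.69 to -0.27). In every other macrophage-like subcluster the interval of its ratio lay above 0. *Mmp2* followed another pattern. *Mmp2* was highest in cells led by *Ccl8*, *Vcam1* and *Igf1*, with 60.1 and 89.0 CPM, and these cells made up 34.4% and 44.2% of the class. *Timp2* there had 211 and 212 CPM, close to its 226 and 197 CPM in the cells led by *Hspa1b*. *Mmp14* ranged from 253 to 431 CPM over all 7 subclusters and both libraries. A cluster led by *Retnla*, *Folr2* and *Lyve1*, genes of tissue-resident macrophages, was kept unnamed, with 92 and 96 cells. It had 834 and 606 CPM of *Timp2*, above every other myeloid cluster, and 537 and 98.7 CPM of *Mmp13* (260 and 45 counts, log2 ratio -2.44, -2.93 to -1.98). Monocyte-like cells had 152 and 365 CPM of *Mmp13* and 173 and 230.1 CPM of *Mmp12*.

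Endothelial-like cells had most of their *Mmp2* and the largest part of their *Timp2* in 1 subcluster, led by *Ackr1*, *Selp* and *Sele*, genes of venules that bind leukocytes. *Mmp2* there had 556 and 1045 CPM (42 and 75 of the 66 and 94 counts of the class) and *Timp2* 953 and 1212 CPM, in 14 and 21 cells. These cells were 14.4% of the class in the *Lmo7+/+* and 28.8% in the *Lmo7-/-* library. Cells led by *Gal* and *Nes* had 19.4 and 15.2 CPM of *Mmp2* and 606 and 547 CPM of *Mmp14*. Lymphatic genes (*Mmrn1*, *Ccl21a*, *Prox1*) led 7 and 2 cells with 1369 and 569 CPM of *Timp2*. Of the 434 and 428 *Timp3* counts of the class, 26 and 251 lay in 7 and 18 cells led by the pericyte genes *Rgs5* and *Notch3*, and 188 and 29 in 18 and 7 cells led by *Cd83*, *Il1b* and *Tyrobp*, which are not endothelial genes. In the cells led by *Gal* and *Nes*, *Timp3* had 509 and 972 CPM. Of the 31 and 35 counts of *Mmp3* and *Mmp9* in the *Lmo7+/+* library, 28 and 33 lay in 13 cells led by *Cilp*, *Hmga2* and *Dpt*, which are not endothelial genes. Without the subclusters led by genes of other classes *Mmp3* and *Mmp9* fell under the minimum of 20 counts, and the log2 ratio of *Mmp2* was 1.67.

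Tumor-like cells fell into 7 subclusters besides 5 cells led by keratin genes. One led by *Tex13b*, *Ccl2* and *Ido1*, with 226 and 527 cells, had the lowest *Mmp2*, *Mmp3*, *Mmp9*, *Mmp10* and *Timp2* of the 7 in both libraries. *Mmp10* there had 6.6 and 1.8 CPM, *Mmp3* 6.2 and 0.82 CPM, *Mmp9* 186 and 156 CPM and *Timp2* 201 and 134 CPM. Cells led by *Igkc*, *Col1a1* and *Col3a1* had the most *Mmp9* (702 and 724 CPM), *Mmp14* (219 and 194 CPM) and *Mmp2* (191 and 222 CPM). *Timp1* was highest in cells led by *Tk1* and *Pclaf*, genes of DNA replication, and in those led by *Ifit3* and *Rsad2*, where it lay between 64.4 and 82.1 CPM. Of the 360 and 196 *Mmp13* counts of the class, 131 and 60 lay in a subcluster led by the macrophage genes *Ctss* and *C1qc*.

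The steepest differences among cells with the tumor chromosome profile were in a cluster of 539 and 570 cells kept unnamed because more of its leading genes belonged to another class. It was led by *Enpp2*, *Ptn* and *Serpine2*. Its *Mmp9*, 906 and 1049 CPM, was the highest of any cluster. *Mmp3* had 134 and 27.9 CPM (578 and 154 counts, log2 ratio -2.26, -2.53 to -2.001), *Mmp10* 118 and 35.2 CPM (511 and 194 counts, -1.75, -1.99 to -1.51) and *Mmp13* 19.7 and 9.61 CPM (85 and 53 counts, -1.03). These 3 of the 9 compared members were past 2-fold lower in the library labelled *Lmo7-/-* and 0 were higher, where 4.07% of 11422 genes were past 2-fold lower, 1.96% higher and 6.03% either. Of the 3, *Mmp13* was no higher here than in T or NK-like cells (19.7 and 11.2 CPM). Of its counts, 12 and 20 lay in a subcluster led by *Ctss* and *Cd14*. The 3 past 2-fold are also those with both promoter matches among the 8 members whose promoter was given. *Mmp12*, with neither match, had a log2 ratio of -0.91 (-1.83 to -0.02) from 28 and 19 counts. A link between promoter matches and ratios was not tested.

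Divided further, the cluster showed where *Mmp3* and *Mmp10* were. A subcluster led by *Mgp*, *Bgn* and *Igfbp5*, genes of the extracellular matrix, had 263 and 253 CPM of *Mmp3* and 219 and 247 CPM of *Mmp10*, equal between the libraries within counting error, but 234 cells in the *Lmo7+/+* and 42 in the *Lmo7-/-* library. A subcluster led by *Igfbp6* and *Neat1* had 7.5 and 1.4 CPM of *Mmp3* with 131 and 262 cells. One led by the interferon-induced genes *Cxcl9*, *Ubd* and *Gbp4* had 0 *Mmp3* counts in 7 and 111 cells. The proliferating subcluster led by *Ube2c* and *Top2a* had 62.1 and 18.6 CPM of *Mmp3* in 144 and 125 cells. *Mmp9* was at 682 CPM or more in all of them. A difference between single tumors and one between genotypes cannot be told apart for such sizes.

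**Figure D5:**
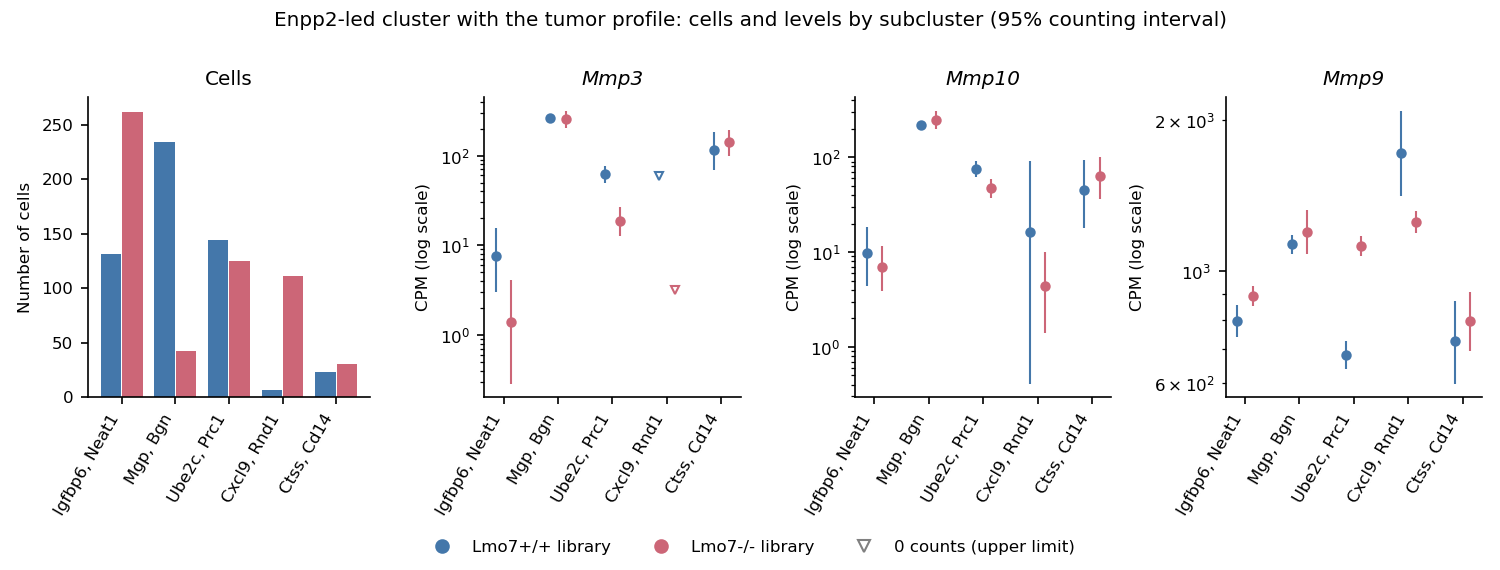
The cluster led by *Enpp2*: cells per subcluster (bars, from 0) and CPM of *Mmp3*, *Mmp10* and *Mmp9* (log axes) with 95% Poisson intervals in the Lmo7+/+ (blue) and Lmo7-/- (red) libraries; open triangles are upper limits where no count was seen. In the subcluster led by *Mgp* and *Bgn* the levels of both libraries coincide while the bars are 234 and 42 cells.

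Related genes past 2-fold were few, beside all-gene shares of 8.04% in fibroblast-, 6.89% in endothelial-, 2.83% in tumor- and 2.7% in macrophage-like cells. With so few genes compared per list, counts of 0 or 1 cannot be told apart from those shares. Of the other metalloproteinases, 15 of 16 listed genes were in the files and 1, 3, 5 and 5 had enough counts in endothelial-, fibroblast-, tumor- and macrophage-like cells; 1 was past 2-fold, *Mmp11*, lower in macrophage-like cells (18 and 6 counts). Of the other inhibitors (*Timp4*, *Reck* and *A2m*), 1 had enough counts in tumor-like and 2 in fibroblast-like cells, and 0 were past 2-fold. In endothelial- and macrophage-like cells 0 of these inhibitors could be compared. *Mmp19*, a protease of wide tissue range, had 143 and 165 CPM in fibroblast-like cells, and *Mmp11* 22.7 and 20.8 CPM in tumor-like cells. The ADAM and ADAMTS proteases, relatives that shed surface proteins or cut proteoglycans, had 8 to 13 genes compared per class. Of them 0 were past 2-fold higher in any class, and *Adamts2* in tumor-like cells (5.83 and 2.15 CPM) and *Adam8* in fibroblast-like cells (18 and 7 counts) were lower. *Adam8* stayed within 2-fold in macrophage-like cells (256 and 390 CPM, 0.61) and in tumor-like cells (69.2 and 105 CPM, 0.60). Of the plasminogen activation genes, 7 to 9 were compared per class. *Serpinb2*, an inhibitor of urokinase, had 18.6 and 170.3 CPM in fibroblast-like cells (12 and 94 counts, log2 ratio 3.19). *Pcsk6* in fibroblast-like and *Serpinb2* in macrophage-like cells (24 and 9 counts) were past 2-fold lower. The docking and clearance receptors, with *Cd44*, *Bsg* and *Lrp1*, had 0 genes past 2-fold in any of the 4 classes (5 or 6 compared), and so did the AP-1 subunits (7 compared). *Fos* had 637 and 406 CPM in tumor-like cells and 2503 and 2109 CPM in fibroblast-like cells. Of the cytokines known to induce these proteases, *Il1a* and *Il1b* were past 2-fold higher in fibroblast-like cells, *Il1b* with 157 and 428 CPM (1.45, 1.11 to 1.80), beside the higher sum of macrophage markers given above, and macrophage-like cells had 3338 and 3686 CPM of *Il1b*. The dissociation stress list summed to 3869 and 3142 CPM in tumor-like, 8790 and 8709 CPM in fibroblast-like, 9123 and 6729 CPM in endothelial-like and 4590 and 3803 CPM in macrophage-like cells. The list's median log2 ratio was -0.32 in tumor-like, 0.05 in fibroblast-like, -0.56 in endothelial-like and -0.41 in macrophage-like cells. Its part in the member ratios was not tested.

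Across the 15 clusters of at least 50 cells, the genes whose log2 level most resembled each member were, as a description, mostly genes of its highest class. *Mmp3* was closest to *Adamts12*, *Fstl1* and *Fbn1* (Pearson's r from 0.98 to 0.99), *Mmp12* to *Cd68*, *Snx1* and *Syk* (0.95 to 0.96), *Mmp13* to *Apobec1* and *Il1a* (0.95), *Mmp9* to *Gjb5*, *Pcdh18* and *Vldlr* (0.97), *Timp3* to *Ebf1*, *Tgfb1i1* and *Fxyd6* (0.97) and *Timp2* to *Pmp22*, *Lrp6* and *Cxcl1* (0.93 to 0.96). *Mmp14*, spread over the classes, had the lowest values, 0.90 with *App* and *Itga5* and 0.89 with *Rrbp1*. The clusters share libraries and differ in depth and size, and they are not replicates.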

How the data were processed

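The raw UMI counts per gene and cell were used as deposited by the authors, without normalization. The submitters' processing notes name Cell Ranger 2.1.1 and mm10, while the headers of the matrices give software version 3.0.0, and the barcodes have 24 bases. The deposited libraries held 16208 and 15163 cells with 98582479 and 80648345 UMIs. The filter required 500 genes and 1000 UMIs per cell and allowed 15% of mitochondrial UMIs, since the study names such thresholds without values. Counts were normalized to 10000 per cell, log-transformed and clustered without integration (2000 variable genes without the Mmp, Timp, Adam and Adamts genes, 30 principal components, 20 neighbours, Louvain, resolution 0.5), giving 17 clusters. Clusters were named from fixed marker lists, or as tumor-like from a chromosome profile of at least 0.8, and limits for naming were set after the data were seen. Classes were clustered again for subclusters. Doublets were kept; Scrublet marked 2.90% and 2.60% of the cells.

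Counts were summed per class and library, and genes with at least 20 counts were compared. Named were all 10 members, the 3 genes most alike each by Pearson's r over clusters, and from the lists of related genes at most 5 per class past 2-fold with at least 100 counts and at most 3 per list with the highest level. Other genes behind counts of 5 or fewer were named after their values were seen. Results for some listed or alike genes are not reported here. Cell filters, resolution, components, the genes left out, doublets, scaling and minimum counts were varied, and further alternatives on cells left out were chosen after seeing the data. The members and lists were chosen with earlier results of these data known. On simulated counts with 200 genes changed per class, 100% of the ratios had the right sign, with a median error of the log2 ratio of 0.24 for 2-fold changes among 6741 genes in fibroblast-like cells and 0.08 among 12134 in macrophage-like cells. These were Poisson counts per class without variation between cells, mice or libraries. The errors thus cover counting only and not counts gathered in few cells. No test between genotypes was possible. Python 3.11.15 with scanpy 1.11.5, igraph 0.11.9, scipy 1.17.1 and matplotlib 3.10.9, and edgeR (TMM) in R were used.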

Additional observations from a re-analysis of the deposited data

Results flagged for a closer look

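Members whose ratio between the libraries went opposite ways in 2 cell classes, with intervals that both leave out 0 and 1 of them past 2-fold, were *Mmp3* and *Mmp13*. The log2 ratio of *Mmp3*, *Lmo7-/-* over *Lmo7+/+*, was 1.14 in fibroblast-like cells against -0.36 in tumor-like cells, a difference of 1.502. Tumor-like subclusters went both ways, with -0.82 (-1.19 to -0.47) in cells led by *Igkc* and 0.35 (0.06 to 0.63) in cells led by *Cdc20*. Intervals of the other subclusters compared held 0. The ratio of *Mmp3* was -3.11 in endothelial-like cells, a difference of 4.255, where 31 and 3 counts stand behind it. It was -1.46 in macrophage-like cells, a difference of 2.602, at a level below that of T or NK-like cells. The log2 ratio of *Mmp13* was 2.099 in fibroblast-like cells against -0.30 in tumor-like cells, a difference of 2.397, the latter again below T or NK-like cells. With 1 library per genotype these differences were not tested.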

How the results depend on the processing

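No paired analysis was possible because each genotype has 1 library and the labels carry no replicate numbers. The number of genes past 2-fold, 395 in tumor-, 544 in fibroblast-, 431 in endothelial- and 327 in macrophage-like cells (1697 in all), was 1182, 1801, 1741 and 1010 (5734) with no minimum count and 82, 57, 35 and 97 (271) with a minimum of 100 counts. With the mean of each cell's CPM it was 642, 929 and 894 in the first 3 classes (2847 in all), and with cells free of other classes' markers 242 in tumor- and 257 in endothelial-like cells. Of the pairs of member and class, 7 were past 2-fold, against 3 with 100 counts and 3 in cells free of other classes' markers. The median log2 ratio of the highest class over the next was 2.25, against 1.88 with the lenient filter and 1.78 in cells free of other classes' markers. *Timp3* changed its highest class in those cells (-0.51) and, chosen after seeing the data, without subclusters led by other classes' genes (-0.44). The ratio of *Mmp9* in fibroblast-like cells was 0.074 with the lenient filter. The causes were not tested, apart from the number of genes compared under other minimum counts. *Mmp13* in fibroblast-like cells was past 2-fold under 18 of 18 alternatives and *Mmp3* under 17 of 18, with 0.76 to 1.43. With 222 fibroblast-like and 170 endothelial-like cells, depth limits every ratio of these classes.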
